A study of Mus musculus with 80 samples.

Results

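The genes of glycolysis and of the hypoxia response were followed in mouse embryonic stem (ES) cells, cultured cells that renew themselves and can form every tissue of the embryo. The set holds 39 genes, chosen by symbol and role and not by their level, among 37888 symbols in the expression tables: 4 glucose and lactate transporters, 9 enzymes of upper glycolysis, 7 of lower glycolysis, 2 lactate dehydrogenases, 4 kinases that switch pyruvate and fructose bisphosphate use, 4 HIF subunits and hydroxylases, and 9 HIF targets outside glycolysis. RNA was measured by sequencing in 12 libraries of 9 groups, among 80 samples. The other 68 samples were not analysed here.

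Glycolysis splits glucose into pyruvate, and lactate dehydrogenase turns pyruvate into lactate so that the pathway can run without respiration. Mouse ES cells are known for high rates of glycolysis. HIF-1α and HIF-2α are transcription factors that prolyl hydroxylases mark for destruction while oxygen is present; when oxygen falls they bind ACGTG or GCGTG near genes of glucose uptake, glycolysis, lactate export, blood vessel growth and mitochondrial removal.

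The groups are named here by their labels. Sall4 het (Sall4flox/-), Sall4 KO (Sall4 delta/-) and Sall4 KO cells transfected with mutant Sall4A (the mutant add-back) had 2 libraries each. Replicate 1 of each is labelled C57BL/6J, and replicate 2 is labelled 129P2/OlaHsd, cell line E14.1, although the sample records of both replicates of a group point to the same source. The groups with 1 library were Sall4 KO transfected with WT SALL4A (the wild-type add-back), Sall1-/-/Sall4-/- (DKO), the WT cells for that DKO, Sall1flox/- (Sall1 het) and Sall1 delta/- (Sall1 KO), all labelled C57BL/6J, and wild-type TT2 cells, labelled (C57BL/6NCrlj x CBA/JNCrlj)F1. The het cells thus carry 1 null allele as well, and both add-backs lie on the KO background. The nature of the SALL4A mutation, the driver of either transgene, the number of clones and the exons deleted are not given in the sources used here. Every library shares 1 description of culture, on gelatin without feeders. Nothing says that libraries of a group came from separate cultures, so p-values reflect library-to-library spread, which may be only technical. In these bulk libraries, fewer cells of a type and less RNA per cell cannot be told apart.

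The promoters show which members carry the HIF core letters close to their start. RefSeq windows of 300 bases around the start (GRCm38.p6, first listed start) were found for 36 of the 39 genes; Slc2a3, Epas1 and Ndrg1 were not matched. Searched on both strands, ACGTG or GCGTG stood in 29 of the 36 windows (80.6%) and in 43.8% of all 27025 promoters of the table. The E-box CACGTG, the site of MYC-type factors, which holds ACGTG on each strand and so counts as 2 matches, stood in 5 of 36 (13.9%) and in 7.24% of all promoters. Of the 8 matched HIF targets outside glycolysis, 7 held the core letters. A match is a stretch of letters and not a binding site. The 6 windows below belong to the genes on which the results turn: the lactate dehydrogenase pair, with 7 matches at Ldha and 1 at Ldhb; Bnip3 and Vegfa, HIF targets with 5 matches and none; and Aldoc and Hk1, with 3 and none. Capitals mark the core letters, read on either strand.
Ldha, chr7:46845554-46845853, plus strand: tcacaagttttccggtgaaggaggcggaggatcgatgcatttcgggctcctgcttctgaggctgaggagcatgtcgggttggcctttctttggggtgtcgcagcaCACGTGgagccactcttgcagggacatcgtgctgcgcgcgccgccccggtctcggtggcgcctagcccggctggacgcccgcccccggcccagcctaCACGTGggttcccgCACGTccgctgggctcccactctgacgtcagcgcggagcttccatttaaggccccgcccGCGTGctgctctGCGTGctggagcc
Ldhb, chr6:142507908-142508207, minus strand: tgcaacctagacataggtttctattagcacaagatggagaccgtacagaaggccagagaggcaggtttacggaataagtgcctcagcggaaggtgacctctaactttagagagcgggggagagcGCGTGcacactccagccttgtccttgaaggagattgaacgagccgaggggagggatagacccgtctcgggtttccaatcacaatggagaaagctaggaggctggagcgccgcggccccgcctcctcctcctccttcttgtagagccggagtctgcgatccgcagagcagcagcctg
Bnip3, chr7:138909457-138909756, minus strand: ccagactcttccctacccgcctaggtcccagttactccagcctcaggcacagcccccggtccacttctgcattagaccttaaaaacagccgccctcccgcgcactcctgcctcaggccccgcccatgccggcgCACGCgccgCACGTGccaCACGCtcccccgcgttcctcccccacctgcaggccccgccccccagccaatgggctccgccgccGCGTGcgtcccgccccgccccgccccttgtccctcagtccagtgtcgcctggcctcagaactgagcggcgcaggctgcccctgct
Vegfa, chr17:46032328-46032627, minus strand: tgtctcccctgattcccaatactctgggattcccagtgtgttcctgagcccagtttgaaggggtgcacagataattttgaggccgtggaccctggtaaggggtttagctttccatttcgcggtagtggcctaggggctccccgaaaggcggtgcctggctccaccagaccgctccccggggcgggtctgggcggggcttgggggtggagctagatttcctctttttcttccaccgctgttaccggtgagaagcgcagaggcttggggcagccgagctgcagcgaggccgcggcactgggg
Aldoc, chr11:78322823-78323122, plus strand: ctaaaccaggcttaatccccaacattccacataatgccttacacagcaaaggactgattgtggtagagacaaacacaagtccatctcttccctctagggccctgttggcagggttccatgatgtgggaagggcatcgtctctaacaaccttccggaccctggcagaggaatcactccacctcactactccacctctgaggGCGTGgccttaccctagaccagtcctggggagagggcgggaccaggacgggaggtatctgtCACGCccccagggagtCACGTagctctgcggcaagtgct
Hk1, chr10:62379859-62380158, minus strand: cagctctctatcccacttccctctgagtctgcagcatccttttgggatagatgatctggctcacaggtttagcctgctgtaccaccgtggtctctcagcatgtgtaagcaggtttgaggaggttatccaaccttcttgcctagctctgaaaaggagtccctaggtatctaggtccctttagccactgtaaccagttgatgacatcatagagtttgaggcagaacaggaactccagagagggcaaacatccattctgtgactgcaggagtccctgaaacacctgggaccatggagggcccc

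Values are FPKM or RPKM as deposited, scaled to gene length and to the mapped fragments or reads, so genes can be compared in level within a library but the depth behind a value is unknown. The targeted genes do not check the labels: Sall4 stood at 196 FPKM and 64.2 RPKM in the libraries labelled het and at 358 and 218 in those labelled KO, and at 109 FPKM in the labelled DKO against 17.6 in the control. In the mutant add-back it stood at 77.4 FPKM and 161 RPKM, and in the wild-type add-back at 97.4 FPKM. In deposited values the add-backs thus had less Sall4 RNA than either library labelled KO, not more. In replicate 1 this runs across different gene lists. In replicate 2 the scaling used below divides the mutant by 0.876 and KO by 1.14, which narrows the gap. The tables give 1 value per gene, so remaining exons cannot be read apart, and every direction below is that of the labels. Sall1 stood at 2.27 FPKM in the labelled DKO, against 13.9 in the control, and at 13.3 in the labelled Sall1 KO, against 21.8 in Sall1 het. Of 10 pluripotency markers, 8 to 10 were listed, and their summed level ran from 3392 to 7082, with none at 0. Of 12 fibroblast feeder markers, 8 to 12 were listed, and their sum was 343 and 176 in het, 624 and 315 in KO, 89.4 and 50.8 in the mutant add-back, and 551 to 583 in the DKO pair, with 0 to 2 at 0. Of 12 primitive endoderm markers, 9 to 12 were listed, and their sum was 263 and 127 in het, 227 and 123 in KO, 93.6 and 76.8 in the mutant add-back, and 364 in the control and 254 in the DKO, with none at 0 in any library. Sparc made up 219 and 101 of the het sums and 148 and 71.4 of the KO sums. Of the 7 endoderm markers tested, 6 were higher in KO than het in both replicates, among them Col4a1, Col4a2, Dab2 and Gata4, with a median change of 0.98 on the log2 scale and none called; between the mutant add-back and KO their median was -0.57. The same medians of the fibroblast markers were 0.62 over 9 tested (7 higher, 2 lower) and -1.32 over 8 (1 higher, 7 lower). Vim made up 272 and 121 of the fibroblast sums in het, 484 and 265 in KO, and 68.3 and 37.9 in the mutant add-back. It made up 172 and 146 in the DKO control and the DKO. Col1a1 stood at 3.28 FPKM in KO replicate 1, against 97.9 in the DKO control and 103 in the DKO. Of 7 neural markers, 3 to 7 were listed, and their sum ran from 6.12 to 63.1 with 0 to 1 at 0. Tubb3 made up 52.9 of the 63.1, in het replicate 2. It was not listed in het and KO replicate 1, whose sums of 6.12 and 6.63 thus cannot be compared with the others. The part of these other cell types in the results was not tested.

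Some members share reads with copies elsewhere in the genome, and the tables count them differently. Gapdh, the glyceraldehyde phosphate dehydrogenase with many pseudogenes, was listed at 223 and 220 FPKM in het and KO replicate 1, whose tables list copies of Pgk1, Pgam1 and Ldha, at 366 to 689 RPKM in the replicate 2 libraries, and at 1430.2 to 4277 FPKM in the 6 tables with a short gene list. Relative to Pkm2, the pyruvate kinase of dividing cells, Gapdh stood at 0.117 and 0.134 in the first pair and at 1.16 to 2.19 in those 6. Pgk1, the phosphoglycerate kinase, and Pgam1, the phosphoglycerate mutase, ran from 0.184 to 0.658 and from 0.148 to 0.452 of Pkm2 over the libraries other than TT2. The table of het replicate 1 listed Pgk1-rs7 at 289 FPKM and Pgam1-ps2 at 368 FPKM beside Pgk1 at 405 and Pgam1 at 307. Eno1, the main enolase, had an entry of its own in 6 tables, among them TT2. In the other 6 it was joined to Gm5506, which those tables also listed alone. Alone, Gm5506 stood at 22.4 and 26.1 FPKM in the replicate 1 add-backs, and at 847 to 1174 in the DKO and Sall1 pairs. Ratios of these genes across tables with different entries are therefore uncertain.

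**Figure D1:**
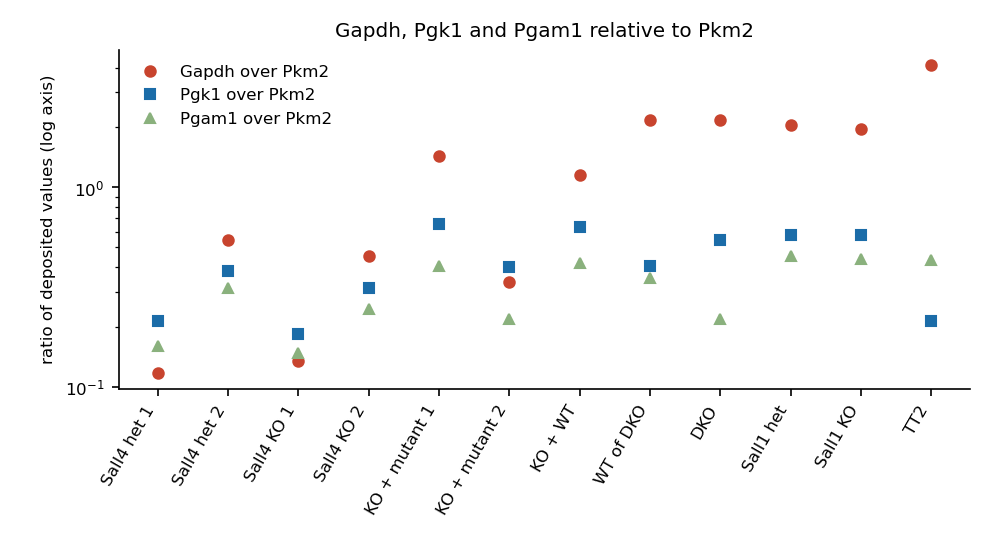
Deposited Gapdh, Pgk1 and Pgam1 divided by deposited Pkm2 in each of the 12 libraries, on a log axis, 1 point per gene and library. Gapdh over Pkm2 runs from 0.117 in Sall4 het replicate 1 to 4.10 in TT2, and its lowest values are those of the Sall4 het, Sall4 KO and mutant replicate 2 libraries, whose tables list copies such as Pgk1-rs7 and Pgam1-ps2.

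The main glycolytic enzymes stood far above the HIF subunits in level per length. In het replicate 1, the most abundant were Ldha, the lactate dehydrogenase subunit that favours lactate formation, at 2254 FPKM, Pkm2 at 1908, Aldoa, the main aldolase, at 1396, and Eno1 at 1352. Car9, the tumour-associated carbonic anhydrase, and Pfkfb4, which sets the level of the glycolytic activator fructose 2,6-bisphosphate, were the lowest, at 0.297 to 3.29 and 0.613 to 1.88 over the 12 libraries. No member was listed at 0 in any table that named it. Hif1a, the inducible HIF subunit, lay between 14.6 and 30.3 outside TT2, and Epas1, which encodes HIF-2α, between 3.83 and 12.2.

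The first question was whether glycolysis and hypoxia genes differ between cells labelled Sall4 KO and Sall4 het. They did not pass the test: limma, on log2 of the scaled value + 1 with a term for the replicate, called 0 of 39 members and 0 of 15078 genes (0%) at an adjusted p under 0.05, and the smallest adjusted p over all genes was 0.237. At an unadjusted p under 0.05 there were 1283 genes, 573 higher (3.8%) and 710 lower (4.71%) in KO, and 2 members, Aldoc and Ldhb, both lower. The fitted change was higher in KO for 15 members (48.1% of all genes) and lower for 24 (51.9%), and after quantile normalization it was higher for 21 and lower for 18. The median change of the members was -0.05 on the log2 scale, beside -0.02 over all genes tested; it turned to 0.02 after quantile normalization, 0.17 without het replicate 1 and 0.01 without KO replicate 1. Lower in both replicates were 13 members, beside 30.1% of all genes, and higher in both were 4, beside 28.5%.

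Aldoc and Ldhb were the members lower by 0.5 or more on the log2 scale in both replicates, a size reached by 6.48% of all genes. Ldhb, the lactate dehydrogenase subunit that favours the reverse step from lactate to pyruvate, stood at 242 FPKM and 366 RPKM in het and at 92.8 FPKM and 211 RPKM in KO. Both KO values lay below both het values, by 1.12 on the log2 scale (SE 0.39, n = 2 per group, limma adjusted p = 0.560). Aldoc, the aldolase isoenzyme best known from brain, stood at 65.0 FPKM and 35.6 RPKM in het and at 24.6 FPKM and 17.1 RPKM in KO. The groups did not overlap here either, and KO was lower by 1.23 on the log2 scale (SE 0.33, limma adjusted p = 0.483). With scaled values, both KO values were below both het values for 6 members (16.2% of all genes): Hk1, Pfkp, Aldoa, Aldoc, Ldhb and Pfkfb3. Both were above for 3 (16.4%): Pdk1, the kinase that shuts pyruvate dehydrogenase, Hif1a and Car9.

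The replicates differed in direction for many members. In replicate 1, 32 of the 37 members measured at 5 or more were lower in KO (50% of all genes), and their median was -0.42 on the log2 scale. Of these, Hk1, Aldoc and Ldhb were past 2-fold lower (4.51%). In replicate 2, 22 of 36 were higher (46.7%) and 14 lower (53.3%), with a median of 0.10, and Aldoc alone was past 2-fold lower (7.89%). All 9 enzymes of upper glycolysis and all 4 transporters were lower in replicate 1, by medians of -0.57 and -0.43; in replicate 2, 5 of the 9 and 2 of the 4 were higher. Slc2a1, the basal glucose transporter, stood at 341 FPKM in het and 256 in KO in replicate 1, and at 202 RPKM in het and 272 in KO in replicate 2. Slc2a3, the high-affinity glucose transporter, had log2 ratios of -0.11 and 0.86.

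The HIF targets outside glycolysis showed this most. All 8 measured were lower in KO in replicate 1, and 7 of 8 were higher in replicate 2, with medians of -0.59 and 0.93 on the log2 scale. Bnip3, a mitophagy receptor, stood at 178 FPKM in het and 116 in KO in replicate 1, and at 64.3 RPKM in het and 137 in KO in replicate 2. Vegfa, the vascular growth factor, stood at 56.3 and 28.7 FPKM, and at 12.1 and 23.8 RPKM. Ndrg1, a stress-response gene, stood at 48.1 and 31.5 FPKM, and at 9.43 and 22.2 RPKM. For each of these 3 genes both KO values lay between a high het replicate 1 and a low het replicate 2. Ddit4, an inhibitor of the growth kinase mTORC1, stood at 119 and 74.9 FPKM, and at 54.3 and 114 RPKM. Egln3, a HIF prolyl hydroxylase that HIF itself induces, stood at 13.4 and 7.96 FPKM, and at 3.88 and 8.44 RPKM. P4ha1, a collagen prolyl hydroxylase, stood at 19.8 and 16.0 FPKM, and at 7.62 and 17.2 RPKM. Thus 5 of 39 members (Egln3, Vegfa, Bnip3, Ndrg1 and Ddit4) were lower by 0.5 or more in replicate 1 and higher by 0.5 or more in replicate 2, beside 1.27% of all genes. Past 2-fold higher in replicate 2 were Bnip3, P4ha1, Ndrg1 and Ddit4 (5.71% of all genes), and in replicate 1 no member was (4.1%).

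**Figure D2:**
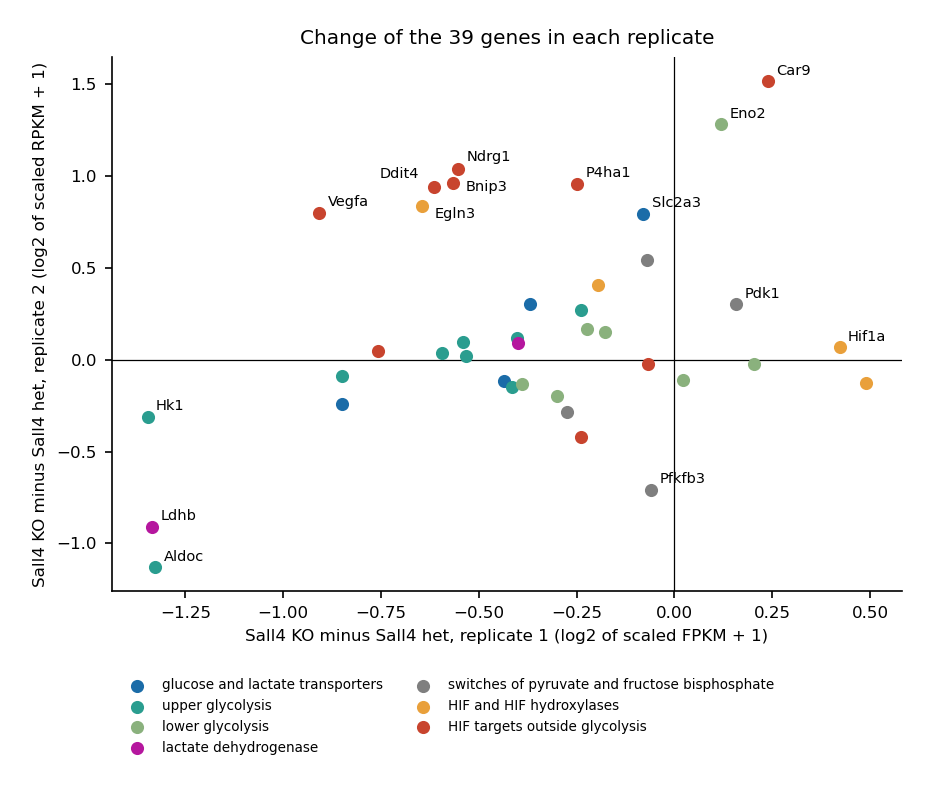
Change of each of the 39 genes between the libraries labelled Sall4 KO and Sall4 het, replicate 1 on the x axis and replicate 2 on the y axis, in log2 of scaled value + 1, coloured by role. Ldhb and Aldoc lie at the lower left, low in both replicates, while Vegfa, Bnip3, Ndrg1, Ddit4 and Egln3 lie at the upper left, lower in replicate 1 and higher in replicate 2.

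The distance lay between the het libraries. With scaled values, both KO values fell between the 2 het values for 18 of 39 members, beside 23.2% of all genes, and for 16 of these het replicate 1 was the higher (11.2% of all genes). The het libraries were further apart than the KO libraries for 29 members (64% of all genes). The median member was 0.66 higher in het replicate 1 than in het replicate 2 on the log2 scale, and the same difference between the KO replicates was 0.03. Over all genes tested these medians were 0.05 and 0.05. For the 9 HIF targets outside glycolysis they were 1.07 and 0.02. Het replicate 1 exceeded het replicate 2 by 2-fold or more for 11 members (11.8% of all genes), led by Ndrg1 at 2.19 and Vegfa at 2.08 on the log2 scale. Unit, gene list and strain label differ between replicates 1 and 2. Their part in these gaps was not tested, nor was that of oxygen, density or medium.

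**Figure D3:**
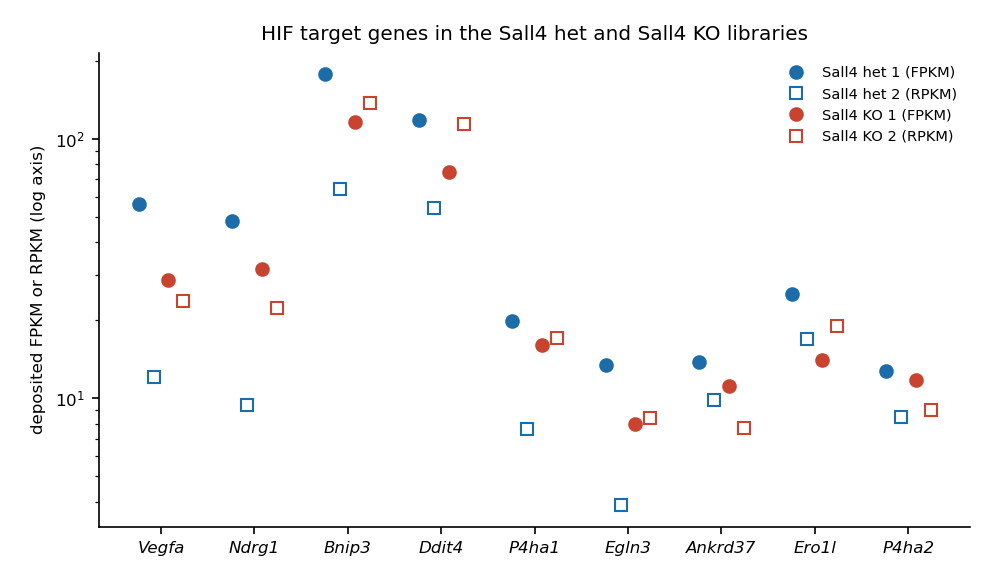
Deposited values of 8 HIF targets outside glycolysis and of Egln3 in the 2 libraries labelled Sall4 het (blue) and the 2 labelled Sall4 KO (red), on a log axis, with replicate 1 in FPKM as filled circles and replicate 2 in RPKM as open squares. For Vegfa, Ndrg1, Bnip3, Ddit4, P4ha1 and Egln3 the het libraries form the highest and the lowest of the 4 values.

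The other HIF subunits and hydroxylases were Hif1a, Epas1 and Egln1. Hif1a stood at 23.0 FPKM and 23.1 RPKM in het and at 30.3 and 26.4 in KO, so that its groups did not overlap, with log2 ratios of 0.40 and 0.13 in the pairs. Epas1 stood at 3.83 FPKM and 6.77 RPKM in het and at 5.65 and 6.64 in KO, which overlapped. Egln1, the main oxygen-sensing HIF prolyl hydroxylase, had log2 ratios of -0.22 and 0.47. In lower glycolysis, the paired ratios of the 6 genes measured in both replicates lay between -0.42 and 0.23, with Gapdh at -0.01 and -0.05, each within 1 gene list. Eno2, the enolase best known from neurons, was higher in both replicates, at 4.63 FPKM and 1.21 RPKM in het and 4.98 and 4.81 in KO, and after scaling the groups overlapped.

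Isoenzyme shares, which scaling within a library does not alter, describe how paralogs divide a step. Ldhb made up 9.71% and 26.4% of Ldha plus Ldhb in het and 5.29% and 15.2% in KO, lower in KO in both replicates, with overlapping ranges. It made up 38.1% in the control of the DKO and 15.9% in the DKO, and 14.6% and 12.3% in Sall1 het and KO. In the add-backs its share was 35.9% and 28.9% with mutant and 24.8% with wild-type SALL4A. Hk1, the hexokinase of most tissues, made up 30.0% and 17.8% of Hk1 plus Hk2 in het and 18.7% and 13.8% in KO, and 47.7% and 44.7% in the DKO control and DKO. Hk2, the HIF-inducible hexokinase, was thus the more abundant in all 12 libraries. Aldoc made up 1.39% to 5.20% of the aldolase pair. Among the phosphofructokinases, the muscle form Pfkm held 2.48% to 11.0% of the summed level, and the rest was divided between the liver form Pfkl and the platelet form Pfkp, with Pfkp at 27.1% in Sall1 het and 84.8% in TT2.

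**Figure D4:**
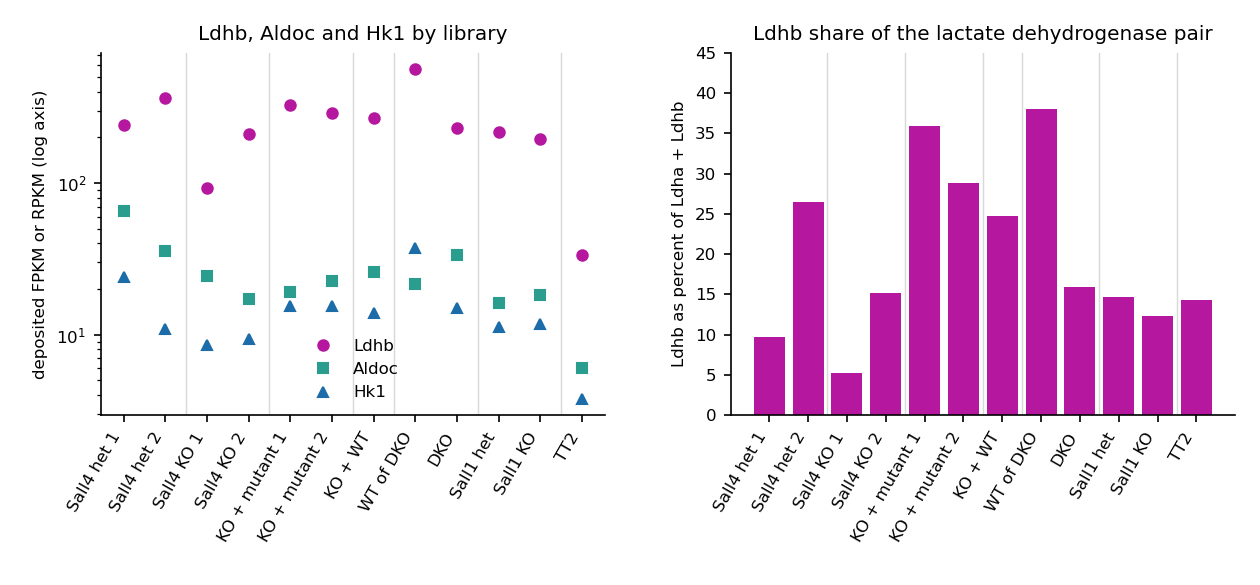
Left, deposited FPKM or RPKM of Ldhb, Aldoc and Hk1 in each library on a log axis; right, Ldhb as percent of Ldha plus Ldhb in each library, 1 bar per library with no error. Ldhb stands at 92.8 and 211 in the Sall4 KO libraries and at 230 in the DKO, below the 242, 366 and 563 of their het or wild-type partners. In Sall1 het and Sall1 KO it stands at 216 and 195, below the DKO.

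The second comparison set the library labelled DKO against its wild-type control, with 1 library each and so no replicate check. Of 35 members at 5 or more, 20 were higher and 15 lower in the DKO, beside 49.3% and 50.7% of all genes, with a median log2 ratio of 0.27 and -0.01 over all genes. Past 2-fold higher were Pdk1, Bnip3 and Ndrg1 (4.83% of 8620 genes), with log2 ratios of 1.25, 1.10 and 1.01. Pdk1 stood at 8.09 FPKM in the control and 20.4 in the DKO, Bnip3 at 58.1 and 124, and Ndrg1 at 13.0 and 26.6. Past 2-fold lower were Vegfa, Ldhb, Hk1 and Hk2 (3.67%), with log2 ratios of -1.53, -1.27, -1.22 and -1.06. Vegfa stood at 34.3 FPKM in the control and 11.0 in the DKO, Ldhb at 563 and 230, Hk1 at 37.1 and 15.1, and Hk2 at 40.7 and 18.7. HIF targets thus differed in direction: Bnip3 and Ndrg1 were higher, while Vegfa and Ero1l, an oxidase of protein folding at 34.7 and 17.2 FPKM, were lower.

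The DKO pair and the Sall4 pairs share no library. Of 34 members measured in all 3 pairs, 6 were lower in every one (19.4% of 7222 genes): Slc16a1, a lactate transporter, Hk1, Pgam1, Ldhb, Pdk3, a further pyruvate dehydrogenase kinase, and Ankrd37, a HIF-induced ankyrin repeat gene. Lower by 0.5 or more in all 3 was Ldhb alone (1.63%), with log2 ratios of -1.36, -0.85 and -1.27. Hk1 had ratios of -1.38, -0.26 and -1.22. Pdk1 was the only member higher in all 3 (18.6%), with ratios of 0.13, 0.37 and 1.25. Bnip3, Ndrg1 and Egln3 were higher by 0.5 or more in both Sall4 replicate 2 and the DKO pair (4.64%), but lower in Sall4 replicate 1, at -0.59, -0.58 and -0.67. Vegfa and Ddit4, with ratios of 0.86 and 1.00 in Sall4 replicate 2, were lower in the DKO, at -1.53 and -0.39. Aldoc was higher in the DKO, at 33.8 FPKM against 21.6.

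**Figure D5:**
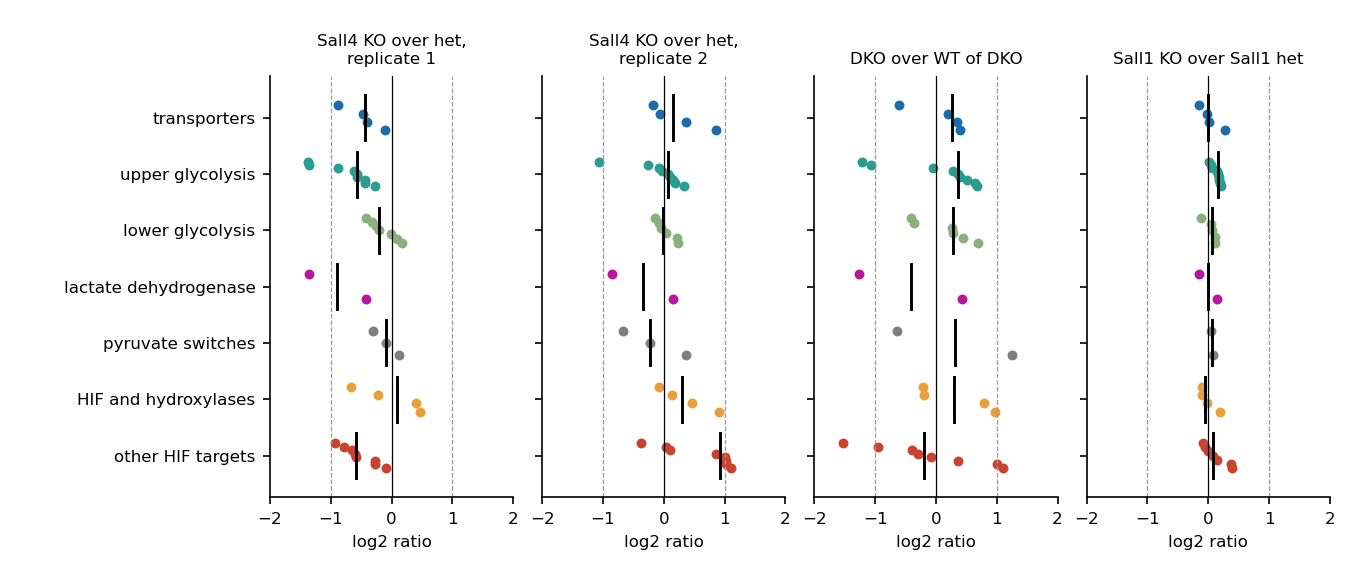
Log2 ratio of each member in 4 pairs of libraries labelled knockout and control, by role, with 1 point per gene, black bars at the median of each role and dashed lines at 2-fold. The HIF targets outside glycolysis have a median of -0.59 in Sall4 replicate 1 and 0.93 in replicate 2, and in the Sall1 pair all members lie between -0.15 and 0.39.

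In the Sall1 pair, also of 1 library each, no member passed 2-fold in either direction (0.624% of 8170 genes higher and 0.722% lower). Of 33 members, 23 were higher in the library labelled Sall1 KO (50.9% of all genes) and 10 lower (49.1%), with a median log2 ratio of 0.06 and a range from -0.15 to 0.39. All 9 upper glycolytic enzymes were among those higher, by 0.01 to 0.21. Ddit4, at 92.0 and 121 FPKM, and Vegfa, at 13.1 and 17.5, had the largest ratios, and Slc16a1 and Ldhb the lowest.

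The third question was whether these genes differ between Sall4 KO cells and those labelled as transfected with SALL4A, whose Sall4 RNA was not higher. For the mutant add-back against KO, limma called 0 of 38 members and 0 of 11632 genes (0%), with 1135 genes at an unadjusted p under 0.05, 599 higher (5.15%) and 536 lower (4.61%). The members' median change was -0.02, as over all genes, and it turned to 0.02 over genes at 5 or more and to 0.06 without mutant replicate 1. Hk1 and Ldhb were higher and Slc2a1, Slc16a3 and Eno3 lower by 0.5 or more in both replicates, beside 5.51% and 4.54% of all genes. For all genes of this comparison, replicate 1 runs across different gene lists, which the replicate term cannot take up. The part of the gene list in these changes was not tested. Ldhb stood at 329 FPKM and 287 RPKM in the mutant add-back, above the 92.8 and 211 of KO, by 1.44 on the log2 scale (SE 0.40, limma adjusted p = 0.439). Without mutant replicate 2 its change was 1.99 with an adjusted p of 0.0220, and 4 members and 787 genes were called, in a fit whose lone mutant library has another gene list than its KO partner and borrows its spread from the other groups. Without mutant replicate 1, 329 genes and no member were called. Hk1 stood at 15.4 FPKM and 15.5 RPKM, above the 8.53 and 9.33 of KO, by 1.02 (SE 0.34, limma adjusted p = 0.479).

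The transporters Slc2a1 and Slc16a3 were lower in both mutant libraries than in either KO library. Slc2a1 stood at 139 FPKM and 118 RPKM, against 256 and 272 in KO, a difference of -0.73 (SE 0.31, limma adjusted p = 0.536). Slc16a3, the lactate exporter of glycolytic cells, stood at 36.5 and 44.0, against 97.9 and 85.7, a difference of -0.87 (SE 0.35, limma adjusted p = 0.527). Eno3, the muscle enolase, stood at 6.66 and 6.08, against 14.6 and 13.6, a difference of -0.75 (SE 0.21, limma adjusted p = 0.444). In none of these 5 genes did the groups overlap. Both mutant values lay above both KO values for 8 members (22.9% of all genes): Hk1, Pfkm, Pgk1, Ldhb, Pdk3, Egln3, Ero1l and Ddit4. They lay below for 13 (21.5%): Slc2a1, Slc16a3, Pfkl, Tpi1, Eno2, Eno3, Ldha, Pdk1, Hif1a, Epas1, Bnip3, P4ha1 and Ndrg1. Hypoxia genes thus stood on both sides.

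The mutant add-back against het shares its libraries with the comparisons above and, in replicate 1, also runs across different gene lists. It called 0 of 38 members and 0 of 11632 genes (0%) in limma, with 566 genes higher (4.87%) and 660 lower (5.67%) at an unadjusted p under 0.05. Without mutant replicate 2 it called 3 members, Slc16a3, Aldoc and Gapdh, and 677 genes, and without mutant replicate 1 no member and 211 genes. Lower by 0.5 or more in both replicates were Slc2a1, Slc16a3, Eno3 and Pfkfb3 (5.69%). Slc16a3 stood at 182 FPKM and 93.6 RPKM in het, 1.41 above the mutant add-back on the log2 scale (SE 0.35, limma adjusted p = 0.460). Slc2a1 differed by -0.76 (SE 0.31), Eno3 by -0.66 (SE 0.21) and Pfkfb3, the inducible kinase that raises fructose 2,6-bisphosphate, by -0.71 (SE 0.25), with limma adjusted p from 0.460 to 0.480 over the 4 genes. Ldhb and Hk1, by contrast, differed from het by 0.32 (SE 0.40) and 0.19 (SE 0.34). Each went in opposite directions in replicates 1 and 2: Ldhb by 0.73 and -0.09, and Hk1 by -0.33 and 0.71. Their fitted changes thus average replicates that differ, and do not show a return to the het level.

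The wild-type add-back had 1 library and was read beside replicate 1 of KO, which it shares with the mutant add-back. With wild-type SALL4A, 14 of 34 members were higher (49.1% of all genes) and 20 lower (50.9%); 4 were past 2-fold higher (8.73% of 8399 genes) and 3 past 2-fold lower (14%). With the mutant, 12 of 34 were higher (48.5%) and 22 lower (51.5%), of which 5 were past 2-fold higher (7.75% of 8375 genes) and 5 past 2-fold lower (13.2%). Ldhb stood at 92.8 FPKM in KO, 267 with wild type and 329 with mutant. Ndrg1 stood at 31.5, 6.57 and 6.42, and Pdk1 at 120, 38.8 and 41.3. Vegfa stood at 28.7, 7.94 and 13.2, with a log2 ratio of -1.51 for wild type and -0.79 for mutant. Gapdh, Pgk1 and Pgam1 were also past 2-fold higher in both, by 2.93 and 3.24, 1.61 and 1.67, and 1.33 and 1.27. All ratios to KO replicate 1 in this paragraph, for every gene, run across tables with different gene lists. In replicate 2, where the mutant and KO tables were closer in entries, the mutant ratios of Gapdh, Pgk1 and Pgam1 were -0.62, 0.17 and -0.35. Those of Ldhb, Ndrg1 and Pdk1 were 0.73, -0.11 and -0.37 there. The part of the gene list in these values was not tested. Vegfa was the only member past 2-fold there, higher with mutant at 42.2 RPKM against 23.8 (14.8% of 11064 genes), the reverse of its replicate 1 ratio; 0 were past 2-fold lower (2.01%). The Vegfa ratio of 1.08 on the log2 scale became 0.80 with values as deposited and 0.88 after quantile normalization, and 2 members were then past 2-fold lower: Slc2a1 under both, Eno3 as deposited and Gapdh after quantile normalization.

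The add-backs of replicate 1 can be compared within 1 gene list, without KO. No member was past 2-fold (2.16% of 8084 genes higher and 1.25% lower with wild type), and the log2 ratios of wild type over mutant ran from -0.71 for Vegfa to 0.89 for Eno3, at 13.6 and 6.66 FPKM. Slc16a3 followed at 0.86, with 69.1 and 36.5 FPKM. Of 33 members, 11 were higher with wild type, beside 52.3% of all genes. The joint entry of Eno1 stood at 1399.7 and 1284 FPKM.

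Other genes of the same pathways were read from lists. Of 30 other glycolysis and pyruvate genes, 21 were tested between KO and het and none was called; 6 were higher and 15 lower, beside 48.1% and 51.9% of all genes, with a median of -0.25, beside -0.02 over all genes. At an unadjusted p under 0.05, 4 were lower (4.71% of all genes) and 0 higher (3.8%). Pgam2, the muscle phosphoglycerate mutase, stood at 7.92 FPKM and 7.01 RPKM in het and 2.39 and 1.79 in KO, a difference of -1.46 (SE 0.21, limma adjusted p = 0.356). Ldhc, the lactate dehydrogenase of sperm, stood at 1.79 and 3.33 in het and 0.22 and 0.33 in KO, a difference of -1.41 (SE 0.24, limma adjusted p = 0.362). Fbp2, the muscle fructose bisphosphatase, stood at 3.85 in both het libraries and 1.95 and 0.92 in KO. The fourth was Pdp2, a phosphatase that reactivates pyruvate dehydrogenase, with -0.62. In the DKO pair, Ldhc stood at 0.48 FPKM against 1.75 in the control and Fbp2 at 0.12 against 2.10, but Pgam2 at 5.96 against 1.91. Of 8 red blood cell and muscle markers, 4 to 8 were listed. Their summed level was 9.48 and 7.83 in het, 5.09 and 4.05 in KO, and 15.4 in the DKO against 12.5 in its control. Des alone made up 7.21 and 4.75 of the het sums and 3.72 and 3.58 of the KO sums. It stood at 13.1 in the DKO and 12.1 in its control. Only 1 of the 8 passed the filter of the fit between KO and het. The part of these cell types in the values above was not tested. Pgam2, Ldhc, Fbp2 and Pdp2 were each higher in the mutant add-back than in KO, by 0.73 to 0.95, with none called.

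Of 9 pentose phosphate genes, 8 were tested between KO and het, 1 was higher (48.1% of all genes) and 7 lower (51.9%), with a median of -0.22 and none called. Tkt, the transketolase, stood at 354 FPKM and 237 RPKM in het and 221 and 184 in KO. Of 28 other HIF pathway and hypoxia genes, 24 were tested; 13 were higher and 11 lower, beside the same shares of all genes, with a median of 0.06 and none called. Kdm4b, a histone demethylase, stood at 12.3 FPKM and 5.11 RPKM in het, 36.0 and 37.5 in KO, and 5.46 and 39.8 in the mutant add-back. Its KO values lay above both het values, by 2.02 on the log2 scale (SE 0.93, limma adjusted p = 0.652), and the mutant libraries stood far apart. Cited2, which competes with HIF for its coactivator, stood at 29.2 FPKM and 25.3 RPKM in het, 78.5 and 43.8 in KO, and 19.5 and 12.1 in the mutant add-back, a difference of 1.04 between KO and het (SE 0.28, limma adjusted p = 0.483). Hmox1, the inducible heme oxygenase, stood at 118 and 283 in het and 78.7 and 87.6 in KO. P4hb, the disulfide isomerase subunit of collagen prolyl hydroxylase, stood at 288 and 248 in het and 199 and 163 in KO. Of 7 MYC and partner genes, 6 were tested and none called. Txnip, a glucose-responsive brake on glucose uptake, had the largest ratio of that list in the DKO, 331 against 59.0 FPKM, a log2 ratio of 2.49.

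In TT2, the wild-type line whose table is at transcript level, values were summed by gene and entered no ratio between libraries. Gapdh at 1041, Pkm2 at 254, Ldha at 199.8, Tpi1, the triose phosphate isomerase, at 186 and Pfkp at 156 FPKM led. Vegfa stood at 114 and Eno3 at 50.1, above the 7.94 to 56.3 and the 6.08 to 14.6 of the other 11 libraries, while Bnip3, at 5.25, lay below their 58.1 to 178.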

How the data were processed

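RNA-seq tables of 12 mouse ES cell libraries were used as deposited by the authors. Per the file headers, deposited values are RPKM in the 3 replicate 2 libraries and deposited FPKM in the other 9. Per the submitters' processing notes, the series used the build mm9 with Bowtie 0.12.7, TopHat, MACS 1.4.2 and SAMtools. Which tool made which table, and the RNA selection, are not given there. No counts are given, so depth is unknown and no counting interval can be given.

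The tables hold 37883 entries (het and KO replicate 1, after which 1225 without a gene name were dropped), 19049 (het and KO replicate 2), 20223 (mutant replicate 2, where 20 shifted symbols were set by identifier), 23234 or 23235 (the other gene tables) and 47834 transcripts (TT2, 99.3% of gene identifiers matched in RefSeq GRCm38.p6, used there for names only). Rows of one symbol were summed. The 6 libraries of het, KO and mutant add-back were brought to 1 scale by median ratios of 9850 genes. Genes at 1 or more in 2 of 6 were fitted on log2(value + 1), using lmFit and the trended eBayes of limma 3.58.1 (R 4.3.3). Group and replicate terms were used because units and gene lists differ between replicates. Mutant replicate 1 has another gene list than het and KO replicate 1, which the replicate term cannot take up. Tests are two-sided, with Benjamini-Hochberg adjustment over all genes at 0.05. Fold changes on this scale understate those of low genes. Pairs of single libraries got a scaled log2 ratio over genes at 5 or more in 1 of the pair, with 2-fold as the limit and no test. The fit was tested on simulated data. Promoters are RefSeq windows of GRCm38.p6, with no coordinates moved between builds.

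Every member could be named; fold changes with errors were given for members with the same sign and at least 0.5 in both replicates, and for pairs past 2-fold. From each list, genes were named among the 4 whose smaller within-replicate change was largest (or ratio, for a pair). A gene so named could be given in other comparisons too. Sparc, Vim, Col1a1, Tubb3 and Des were named after their values were seen. The members and lists were chosen with earlier results of these data known. Hk1 in the Sall4 pairs and the medians of het and KO gaps were singled out after their values were seen, and the pair of add-backs was added then. Alternatives were other pseudocounts, filters, scalings and designs, and leaving out each library. Tables and figures were made in Python 3.11.15 (numpy 2.4.6, pandas 2.3.3, matplotlib 3.10.9).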

Additional observations from a re-analysis of the deposited data

Results flagged for a closer look

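Some members differed in opposite directions in the replicates of a comparison, which carry different strain labels and units, by 0.5 or more on the log2 scale each. The difference between the replicates was not tested, since each has 1 library per group. Between the libraries labelled Sall4 KO and Sall4 het, the change in replicate 2 minus that in replicate 1 was 1.48 for Egln3, 1.71 for Vegfa, 1.53 for Bnip3, 1.59 for Ndrg1 and 1.56 for Ddit4. Between the mutant add-back and Sall4 KO it was 1.16 for Pfkp, 2.00 for Vegfa and -3.74 for Gapdh, which stood at 220 FPKM in KO and 1720.3 FPKM in the mutant add-back in replicate 1, from tables with different gene lists, and at 689 and 366 RPKM in replicate 2.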

How the results depend on the processing

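Same-numbered libraries of het, KO and the mutant add-back share the unit, the strain label and, in part, the gene list, and their deviations from the group means correlated at 0.58 (het and KO), 0.10 (het and mutant) and 0.06 (KO and mutant), and the fit holds a term for the number; with no replicate block, 0 members and 0 genes were called in each comparison and the members' medians stayed at -0.05, -0.02 and 0.03. For KO against het, no alternative called a gene, and leaving out 1 library moved the members' median between -0.36 and 0.17, Aldoc between -1.54 and -0.92 and Ldhb between -1.54 and -0.70. For mutant against KO, the median of -0.0245 became -0.0458 and -0.00639 with pseudocounts of 0.1 and 5, 0.0231 over genes at 5 or more, -0.274 with values as deposited and -0.0969 after quantile normalization. With 1 library left out it lay between -0.291 and 0.0620, 0 to 787 genes and 0 to 4 members (Gapdh, Pgk1, Ldhb and Pdk1) were called, and 329 genes without mutant replicate 1. For mutant against het, a pseudocount of 0.1 called 1 gene, and leaving out 1 library called 0 to 677 genes, 0 to 3 members, 211 genes without mutant replicate 1, and gave Slc16a3 a change of -1.83 without mutant replicate 2. Members past 2-fold became 0 in Sall4 KO over het replicate 2 (from 5) and 4 in the DKO (from 7) with a pseudocount of 5. Over KO replicate 1, those of the wild-type add-back became 12 (from 7) both as deposited and after quantile normalization. Those of the mutant in replicate 2 (1 higher, 0 lower) became 2 higher with a pseudocount of 0.1, 2 lower and 0 higher both as deposited and after quantile normalization, and 0 with 5. The fitted change of each member named with a fold change kept its sign under every alternative run, but the members' medians, all near 0, did not. That of KO against het turned to 0.0220 after quantile normalization, 0.172 without het replicate 1 and 0.0109 without KO replicate 1. That of mutant against het, 0.0255, turned to -0.00449 over genes at 5 or more and -0.256 as deposited, and lay between -0.419 and 0.137 with 1 library left out. The cause of each move was not tested. Depth is unknown, so low genes such as Car9 and Pfkfb4 carry an unknown counting error.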
